A study of Mus musculus with 4 samples.

Results

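The mitochondrial ribosomal protein genes of this series were taken as every gene symbol made of Mrpl or Mrps, a number and at most 1 letter from a to d. Of the 40213 symbols, 78 matched. By the uniform naming of ribosomal proteins, 51 of them encode large subunit proteins and 26 encode small subunit proteins. Mrps18a and Mrps30 belong to the large subunit despite their names. The remaining member, Mrps36, carries the family name but is known as a component of the 2-oxoglutarate dehydrogenase complex.

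The mitochondrial ribosome, or mitoribosome, is assembled in the matrix from proteins that are encoded in the nucleus and imported, and from ribosomal RNA encoded in mitochondrial DNA. It makes the hydrophobic subunits of the respiratory chain and of ATP synthase that mitochondrial DNA encodes. Part of its proteins have relatives in the bacterial ribosome and the rest are found only in mitochondria. In macrophages the use of the respiratory chain is known to shift with activation.

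Expression was measured by RNA sequencing in RAW264.7 cells, a mouse macrophage line, after 48 h with one of the materials Gel and CuNZ@Gel, with 2 libraries for each. The sample titles gave the groups, since the described treatment is CuNZ@Gel alone, and CuNZ is not spelled out. Both groups were the same cell line in 12-well plates, with no genetic change named. Whether the 2 libraries of a group came from separate cultures is not stated, so the spread behind each p-value, that between libraries, may be technical.

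Levels are in scaled CPM, that is, CPM divided by 1 factor per library. The libraries held between 13715000 and 14880000 recovered reads, rounded, and their factors were 0.937 and 0.936 for Gel and 1.07 and 1.07 for CuNZ@Gel. All 10 macrophage markers reached 1 scaled CPM in 2 or more libraries, the level asked of a gene to be tested. They stood at a summed 6081 and 6252 scaled CPM in Gel and 9472 and 9257 in CuNZ@Gel. Of the 10, 7 were raised and 2 lowered in limma's test at an adjusted p under 0.05. Over all tested genes 32.2% were raised and 34.8% lowered. With total reads as the only scaling Cd68 was no longer called lowered. That left 7 markers raised and 1 lowered, beside 43.4% and 24.7% of all tested genes. The summed markers of fibroblasts, epithelium, endothelium, T cells, B cells and neutrophils lay between 0.0725 and 2.84 scaled CPM per list and library. The endothelial sum was 0.0725 and 0.155 in Gel and 2.84 and 2.41 in CuNZ@Gel. Of these markers only Pecam1 (endothelium) and Pdgfrb (fibroblasts) were tested. Both were raised, and both reached 1 scaled CPM only in the CuNZ@Gel libraries. Markers at 0 in all 4 libraries included Lum, Cd3e, Cd3g, Ms4a1, S100a9 and Mpo. In bulk RNA, fewer cells that express a gene and less of its RNA per cell cannot be told apart.

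Promoters are shown for the 3 members that were higher with CuNZ@Gel (Mrpl18, Mrpl41 and Mrps21) and for 3 of the 4 that were most strongly lower (Mrpl23, Mrpl58 and Mrpl24), so that both directions can be compared by sequence. Mrpl19, the member with the largest decrease, had no entry in the table used. The sequences are from RefSeq, build GRCm38.p6, and run 5′ to 3′ from 250 bases before the start site over the first 30 transcribed bases. Capitals mark, on either strand, the antioxidant response element core TGACNNNGC, the ETS motif CCGGAAG of GABPA, the NRF1 motif GCATGCGC and the YY1 motif AAGATGGC, of which none contains another.
Mrpl18 (chr17:12916062-12916341, minus strand): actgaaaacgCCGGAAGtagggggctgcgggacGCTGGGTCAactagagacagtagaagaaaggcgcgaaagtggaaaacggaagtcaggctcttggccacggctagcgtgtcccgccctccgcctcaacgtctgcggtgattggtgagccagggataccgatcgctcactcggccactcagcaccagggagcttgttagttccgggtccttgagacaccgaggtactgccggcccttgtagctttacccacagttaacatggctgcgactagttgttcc
Mrpl41 (chr2:24975069-24975348, minus strand): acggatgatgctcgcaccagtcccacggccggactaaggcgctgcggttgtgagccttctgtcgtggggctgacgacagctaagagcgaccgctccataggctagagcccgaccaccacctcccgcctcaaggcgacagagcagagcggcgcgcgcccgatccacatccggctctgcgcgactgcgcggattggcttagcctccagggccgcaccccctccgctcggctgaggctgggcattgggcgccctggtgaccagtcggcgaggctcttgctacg
Mrps21 (chr3:95871485-95871764, minus strand): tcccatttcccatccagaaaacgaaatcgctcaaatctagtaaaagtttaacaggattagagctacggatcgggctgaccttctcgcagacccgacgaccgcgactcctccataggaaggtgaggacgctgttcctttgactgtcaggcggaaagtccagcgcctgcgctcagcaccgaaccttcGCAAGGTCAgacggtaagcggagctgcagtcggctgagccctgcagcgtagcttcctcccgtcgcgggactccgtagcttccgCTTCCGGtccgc
Mrpl23 (chr7:142532782-142533061, plus strand): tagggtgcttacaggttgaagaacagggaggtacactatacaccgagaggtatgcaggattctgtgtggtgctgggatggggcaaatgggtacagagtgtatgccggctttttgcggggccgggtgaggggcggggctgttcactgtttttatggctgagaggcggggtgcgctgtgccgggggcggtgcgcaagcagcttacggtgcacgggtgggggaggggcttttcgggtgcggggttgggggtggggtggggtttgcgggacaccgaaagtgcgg
Mrpl58 (chr11:115403502-115403781, plus strand): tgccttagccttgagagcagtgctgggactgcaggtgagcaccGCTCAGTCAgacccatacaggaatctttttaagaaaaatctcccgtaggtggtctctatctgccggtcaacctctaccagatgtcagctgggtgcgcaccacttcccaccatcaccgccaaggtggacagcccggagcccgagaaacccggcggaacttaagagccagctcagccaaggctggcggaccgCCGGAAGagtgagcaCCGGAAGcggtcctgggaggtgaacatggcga
Mrpl24 (chr3:87919294-87919573, plus strand): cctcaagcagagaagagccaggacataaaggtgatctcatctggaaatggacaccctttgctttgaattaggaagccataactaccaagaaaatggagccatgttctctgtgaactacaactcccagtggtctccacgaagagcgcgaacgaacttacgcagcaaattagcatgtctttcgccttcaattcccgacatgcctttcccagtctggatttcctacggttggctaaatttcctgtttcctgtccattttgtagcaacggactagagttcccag

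Counting the first transcribed base as 0, the Mrpl18 promoter held an antioxidant response element core from -217 to -209 and an ETS motif from -240 to -234. The Mrps21 promoter held the former from -65 to -57 and the latter from 18 to 24. The Mrpl41 window held an antioxidant response element core from 37 to 45, past the bases printed. Of the lowered members shown, Mrpl58 held the same core from -207 to -199 and a pair of ETS motifs next to its start site, and neither the Mrpl23 nor the Mrpl24 window held any of the 4 motifs.

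RefSeq promoters of 300 bases were matched by symbol for 69 of the 78 members, as 75 windows, and were set beside all 32851 windows of the table. The ETS motif, bound by GABPA, a known regulator of nuclear genes for mitochondrial proteins, stood in 34.7% of member windows and in 8.86% of all windows. The YY1 motif stood in 12 of the 75 member windows against 2.75% of all windows, and the NRF1 motif in 10.7% against 2.71%. The TATA box TATAAA was rarer in member windows, at 6.67% against 13.6%. The antioxidant response element core, the site of NRF2, stood in 18.7% against 12.4%. It was found in 14 member genes, of which 9 were lowered, 3 were raised and 2 were not called. The 26 member genes with an ETS motif included 19 lowered and 2 raised genes. Over all 78 members 64 were lowered and 3 raised, and over all tested genes 34.8% were lowered and 32.2% raised. No test compared these counts. These matches describe letters in the reference and are not measured binding.

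All 78 members were expressed in both groups, and with CuNZ@Gel most were lower. Their levels summed to 4611 and 4461 scaled CPM in the Gel libraries and to 2971 and 3195 in the CuNZ@Gel libraries. Both CuNZ@Gel libraries were thus below both Gel libraries, and the group means of 4536 ± 106 and 3083 ± 158 (SD, n = 2 each) gave a ratio of 0.680. The median member stood at 51.8 and 48.5 scaled CPM in Gel and at 36.3 and 38.3 in CuNZ@Gel. Mrps12, which encodes a protein of the decoding centre, was the lowest member in every library, with 211 reads over both Gel libraries and 141 over both CuNZ@Gel libraries. Mrpl19 was the highest member in Gel, and Mrpl17 was the highest in CuNZ@Gel.

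Each gene was tested with limma on the deposited log2(scaled CPM + 1) values, and called raised or lowered at an adjusted p under 0.05 (Benjamini-Hochberg over all 11588 genes tested). Changes are log2 differences, CuNZ@Gel minus Gel, on that scale. Of the 78 members, 64 were lowered, where 34.8% of all tested genes were lowered, and 3 were raised, where 32.2% of all tested genes were raised. The other 11 were not called. The median change of the members was -0.47, and that of all tested genes was -0.03. Among the lowered members the adjusted p ran from 1.69e-13 to 0.0432, and 9 members fell at least 2-fold. In 69 members both CuNZ@Gel libraries lay below both Gel libraries, as they did for 43.5% of all tested genes. In 4 members both lay above, as they did for 39.8% of all tested genes, and in 5 the groups overlapped.

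**Figure D1:**
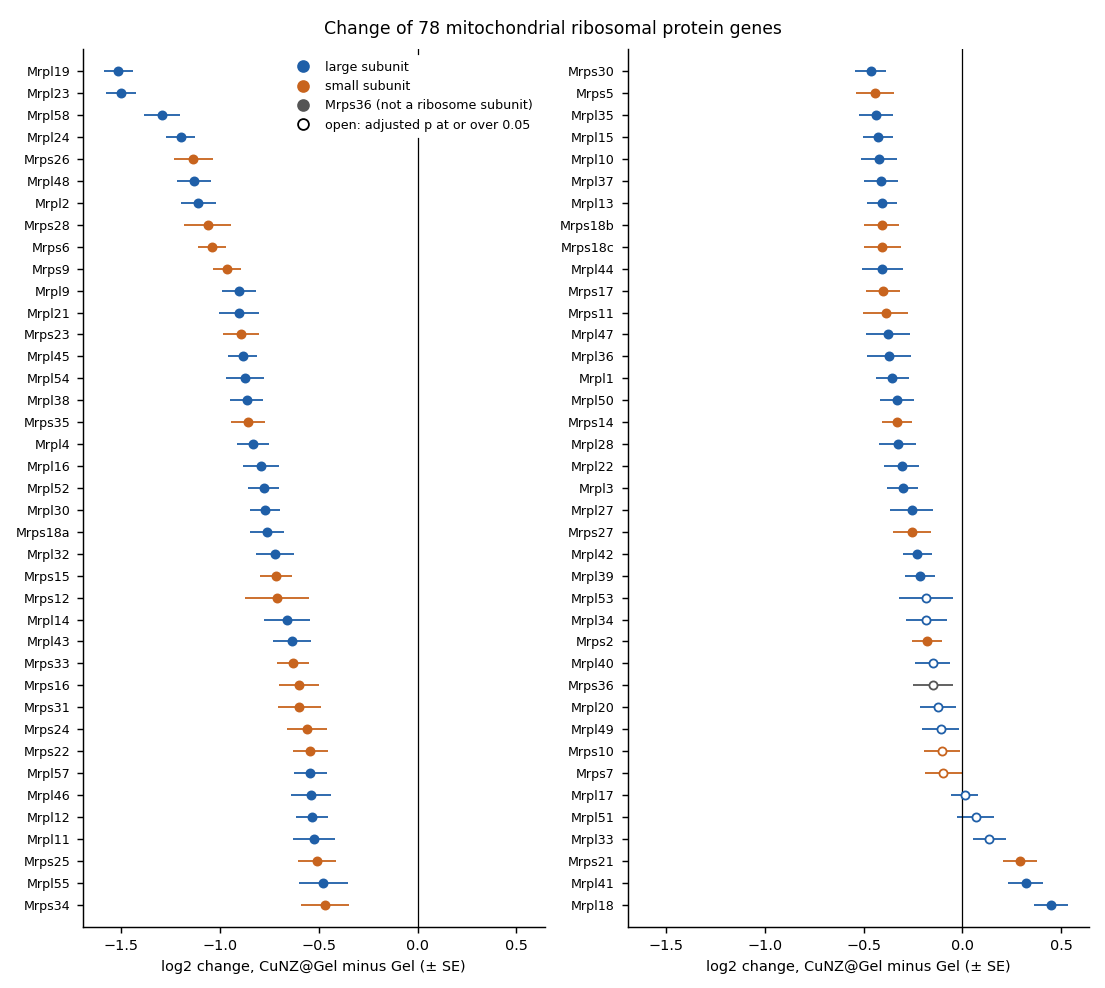
Log2 change (CuNZ@Gel minus Gel, x axis) of each of the 78 members, sorted from Mrpl19 at -1.52 to Mrpl18 at 0.45. Points are limma estimates with bars of 1 standard error; colour gives the subunit, and open points are the 11 members not called at an adjusted p of 0.05.

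Both subunits shared the direction. In the large subunit 41 of 51 members were lowered and 2 raised, with a median change of -0.44. In the small subunit 23 of 26 were lowered and 1 raised, with a median of -0.53. The summed large subunit level fell from 3036 ± 74.1 to 2064 ± 81.0 scaled CPM, and the summed small subunit level from 1469 ± 32.5 to 990 ± 74.0 (SD, n = 2 each), ratios of 0.680 and 0.674. By ancestry, 38 of the 46 members with bacterial relatives were lowered and 2 raised (median -0.43), beside 26 of 31 lowered and 1 raised among proteins found only in mitochondria (median -0.54). After the correction for transcript length and GC content described below, these medians were -0.41 and -0.39. Their order was thus not kept. All 10 small subunit proteins found only in mitochondria were lowered, between -1.14 for Mrps26 and -0.26 for Mrps27. After the same correction 7 of these 10 were lowered. Mrps27, at -0.26, lost its call whenever either Gel library or CuNZ@Gel replicate 1 was left out (adjusted p between 0.0713 and 0.0981).

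Of 6 members at the rim of the tunnel through which the new peptide leaves, 5 were lowered, with changes that ranged from -1.50 to 0.01, and with total reads as the only scaling 3 were lowered and 1 raised. The grouping by place in the ribosome was drawn up after values had been seen, and it left some members unassigned. Mrpl23, at the tunnel exit, stood at 113 and 109 scaled CPM in Gel and at 36.9 and 40.2 in CuNZ@Gel. The groups were far apart, and the change was -1.50 ± 0.08 (SE; adjusted p = 5.19e-13). Mrpl24, a neighbour at the same exit, stood at 125 and 115 in Gel and at 51.4 and 51.7 in CuNZ@Gel, a change of -1.20 ± 0.07 (adjusted p = 8.61e-12). Mrpl45, which holds the ribosome to the inner membrane, went from 110 and 103 to 58.4 and 55.8 (-0.88 ± 0.07, adjusted p = 1.08e-09). Mrpl22 and Mrpl47 were lowered less, by -0.31 and -0.38. Leaving out Gel replicate 2 took Mrpl47 to -0.29 and past the threshold (adjusted p = 0.0802). Mrpl17, also at the tunnel exit, stood at 102 and 104 in Gel and at 101 and 107 in CuNZ@Gel, and its groups overlapped.

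The core of the large subunit, where the peptide bond is formed, and the face toward the small subunit held 7 grouped members. All 7 were lowered, but 5 were with total reads as the only scaling, and 6 after the length and GC correction described below. Mrpl19, at that face, had the largest decrease of all members: 167 and 166 scaled CPM in Gel against 54.3 and 61.0 in CuNZ@Gel. No CuNZ@Gel value came near a Gel value, and the mean level in Gel was 2.89 times that in CuNZ@Gel (-1.52 ± 0.07, adjusted p = 1.69e-13). Mrpl2, beside the peptidyl transferase centre, stood at 70.4 and 64.2 in Gel and at 29.4 and 31.9 in CuNZ@Gel (-1.11 ± 0.09, adjusted p = 4.1e-10). Mrpl4 (-0.83), Mrpl16 (-0.79), Mrpl14 (-0.66) and Mrpl3 (-0.30) were lowered less. The weakest of the 7 was Mrpl27, whose change of -0.26 (adjusted p = 0.0432) lost its call when either Gel library or CuNZ@Gel replicate 1 was left out (adjusted p up to 0.383).

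The central protuberance is the knob at the top of the large subunit. Of its 7 grouped members 5 were lowered, 1 was raised and 1 was not called. Mrpl58, a peptidyl-tRNA hydrolase that became a ribosomal protein, stood at 50.7 and 55.1 scaled CPM in Gel and at 20.9 and 21.0 in CuNZ@Gel (-1.29 ± 0.09, adjusted p = 1.04e-10). Mrpl48 stood at 79.6 and 74.3 in Gel and at 32.6 and 36.5 in CuNZ@Gel (-1.13 ± 0.08, adjusted p = 1.92e-10). Both were clearly separated between the groups, in the direction opposite to their neighbour Mrpl18, which is described with the raised members. Mrpl38 (-0.87), Mrpl46 (-0.54) and Mrpl55 (-0.48) were the other lowered members of the protuberance. Mrpl40 stood at 40.7 and 40.1 in Gel and at 37.1 and 35.6 in CuNZ@Gel, which did not pass the test (-0.15 ± 0.09, adjusted p = 0.136).

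Around the stalks that receive translation factors, 5 of 6 grouped members were lowered. Mrpl12, the stalk protein that contacts these factors, stood at 119 and 108 scaled CPM in Gel and at 71.3 and 84.7 in CuNZ@Gel (-0.53 ± 0.08, adjusted p = 6.99e-06). The 2 CuNZ@Gel libraries differed from each other here by more than the 2 Gel libraries did, but both stayed below Gel. Mrpl54 (-0.87), Mrpl11 (-0.53), Mrpl10 (-0.42) and Mrpl1 (-0.36) were also lowered. Mrpl53 was the stalk member not called (-0.18 ± 0.14, adjusted p = 0.234).

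Of 8 members grouped here under the head of the small subunit, 6 were lowered. Mrps9, whose tail reaches the site of the peptidyl-tRNA, stood at 142 and 136 scaled CPM in Gel and at 68.5 and 73.1 in CuNZ@Gel, a mean level in Gel 1.97 times that in CuNZ@Gel (-0.97 ± 0.07, adjusted p = 1.19e-10). Mrps14 (-0.33), Mrps24 (-0.56), Mrps31 (-0.60), Mrps33 (-0.63) and Mrps35 (-0.86) were the other lowered members of the head. Mrps7 and Mrps10, also in the head, were not called, and in both the groups overlapped. Mrps7 stood at 40.0 and 43.8 in Gel and at 35.9 and 42.5 in CuNZ@Gel. Mrps10 stood at 52.0 and 47.6 in Gel and at 42.4 and 50.6 in CuNZ@Gel; without CuNZ@Gel replicate 2 its change of -0.10 became -0.23 and passed the test (adjusted p = 0.0443).

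Of 11 members grouped here under the body and platform of the small subunit, 10 were lowered and 1 raised. Mrps6, on the platform, stood at 147 and 142 scaled CPM in Gel and at 67.4 and 72.5 in CuNZ@Gel (-1.04 ± 0.07, adjusted p = 3.57e-11). Mrps28 stood at 23.8 and 23.9 in Gel and at 10.5 and 11.4 in CuNZ@Gel (-1.06 ± 0.12). Mrps12, despite its low level, was separated between the groups, at 7.25 and 8.64 in Gel and 3.97 and 4.95 in CuNZ@Gel (-0.71 ± 0.16, adjusted p = 0.000609). Mrps15 (-0.72), Mrps16 (-0.60), Mrps5 (-0.44), Mrps17 (-0.40) and Mrps11 (-0.39) were lowered as well. Mrps2 was lowered by a small margin (-0.18 ± 0.08, adjusted p = 0.0413), and its call was lost without any one of the 4 libraries (adjusted p between 0.0731 and 0.163). Mrps26, which was not assigned to a place here, stood at 113 and 98.9 in Gel and at 41.5 and 54.6 in CuNZ@Gel (-1.14 ± 0.10, adjusted p = 2.45e-09). Its CuNZ@Gel libraries differed from each other by more than those of any other of the 10 lowered members with the smallest p, and both stayed below Gel.

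The other lowered members were not assigned to a place here. In the large subunit, Mrpl9 fell from 61.4 and 56.8 to 30.4 and 31.7 scaled CPM (-0.91) and Mrpl21 from 35.5 and 35.8 to 19.4 and 17.8 (-0.91), followed by Mrpl52 (-0.78), Mrpl30 (-0.77), Mrpl32 (-0.72), Mrpl43 (-0.64) and Mrpl57 (-0.54). Smaller decreases were those of Mrps30 (-0.46), Mrpl35 (-0.44), Mrpl15 (-0.43), Mrpl37 (-0.41), Mrpl13 (-0.41), Mrpl44 (-0.40) and Mrpl50 (-0.33). In 4 members leaving out 1 library ended the call. Mrpl36 (-0.37) lost it without CuNZ@Gel replicate 1 (adjusted p = 0.0818), Mrpl28 (-0.33) without Gel replicate 1 (adjusted p = 0.139), Mrpl42 (-0.23) without Gel replicate 2 (adjusted p = 0.0927) and Mrpl39 (-0.21) without Gel replicate 1 (adjusted p = 0.136) or CuNZ@Gel replicate 1 (adjusted p = 0.0644). In the small subunit, Mrps23 (-0.89), Mrps22 (-0.54), Mrps25 (-0.51) and Mrps34 (-0.47), all found only in mitochondria, were lowered too.

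**Figure D2:**
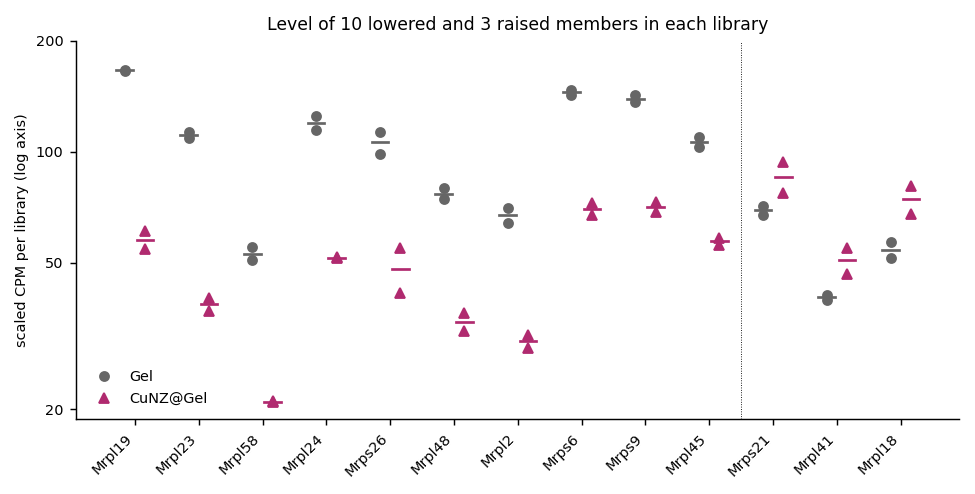
Level (scaled CPM, log axis) in each library of the 10 lowered members with the smallest p and, right of the dotted line, the 3 raised members; circles are Gel, triangles CuNZ@Gel and short lines group means (n = 2). The groups do not overlap in any of the 13 genes, and Mrpl19 is the highest in Gel at 167 and 166.

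Only 3 members were raised, each by under 1.5-fold. Mrpl18, in the central protuberance, stood at 56.7 and 51.4 scaled CPM in Gel and at 67.8 and 80.9 in CuNZ@Gel (0.45 ± 0.09, adjusted p = 0.000126). Both CuNZ@Gel libraries were above both Gel libraries, with replicate 2 the highest. Mrpl41, a large subunit protein found only in mitochondria, stood at 40.9 and 39.7 in Gel and at 46.6 and 54.8 in CuNZ@Gel (0.32 ± 0.09, adjusted p = 0.00376). Mrps21, a small protein of the small subunit platform with a bacterial relative, stood at 71.4 and 67.2 in Gel and at 77.2 and 93.5 in CuNZ@Gel (0.29 ± 0.08, adjusted p = 0.00453). Without CuNZ@Gel replicate 2, Mrpl41 came to 0.21 (adjusted p = 0.0819) and Mrps21 to 0.16 (adjusted p = 0.128), so these 2 calls rested on that library. CuNZ@Gel replicate 2 was above replicate 1 in 62 of the 78 members, the 3 raised ones included.

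Of the 11 members not called, 8 had a change below 0 and 3 above it. Mrpl33 stood at 48.0 and 46.6 scaled CPM in Gel and at 49.5 and 54.8 in CuNZ@Gel (0.14 ± 0.08, adjusted p = 0.158), so that its groups did not overlap although the test was not passed. Mrpl51 stood at 58.0 and 46.6 in Gel and at 53.3 and 55.8 in CuNZ@Gel, with the widest gap between Gel libraries seen in these 11 members. Mrpl20 stood at 43.8 and 52.7 in Gel and at 44.1 and 43.9 in CuNZ@Gel, and its groups overlapped. The changes of Mrpl34 (-0.18 ± 0.10) and Mrpl49 (-0.11 ± 0.10) did not pass the test either. Mrps36, the member that is not a ribosomal subunit, stood at 31.0 and 31.7 in Gel and at 25.9 and 30.6 in CuNZ@Gel (-0.15 ± 0.10, adjusted p = 0.198). It passed the test only without CuNZ@Gel replicate 2 (-0.27, adjusted p = 0.0471).

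The 3 paralogs of the S18 family, of which Mrps18a sits in the large subunit and the other two in the small one, were all lowered. Mrps18a fell from 53.4 and 52.0 to 29.6 and 31.7 scaled CPM (-0.76 ± 0.09). Mrps18b fell from 68.0 and 62.4 to 44.8 and 53.2 (-0.41 ± 0.09), and Mrps18c from 39.0 and 44.1 to 30.3 and 31.8 (-0.41 ± 0.09). The difference between the paralogs was not tested.

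Per kilobase of the longest annotated transcript, which allows levels to be compared between genes, the members spanned 6.94 to 142 scaled CPM per kb in Gel, with a median of 25.9. The highest were Mrps21 (142 ± 6.07), Mrps6 (130 ± 3.01), Mrpl52 (90.8 ± 0.225), Mrpl24 (89.5 ± 5.48) and Mrpl12 (86.0 ± 5.86; SD, n = 2 each). The lowest were Mrpl47 (6.94 ± 0.620), Mrps25 (7.26 ± 0.331), Mrps5 (7.76 ± 0.117), Mrps12 (8.996 ± 1.11) and Mrps17 (9.90 ± 0.455). Within these SDs, Mrpl52, Mrpl24 and Mrpl12 overlapped, as did Mrpl47 with Mrps25 and Mrps12 with Mrps17. Proteins of 1 particle therefore had transcript levels that ranged over more than an order of magnitude on this scale, which depends on the transcript chosen: with principal transcripts Mrpl52 came to 186 and Mrpl23 to 160 per kb.

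Several members share exons with another gene, and whether strand was used in counting is not given in the sources used here, so that their reads are uncertain. In the annotation used here 33 members overlapped an exon of another gene, 28 of them on the opposite strand. Among them were Mrpl19 with Gcfc2, Mrpl24 with Rrnad1, Mrpl48 with Rab6a, Mrpl58 with Ict1os, Mrps26 with 4930473A02Rik and the raised Mrpl18 with Tcp1, all antisense, and Mrps6 with Slc5a3 on the same strand. Among the 45 members with no such overlap 37 were lowered and 2 raised, with a median change of -0.53. Among the 33 with overlap 27 were lowered and 1 raised, with a median of -0.42. After the length and GC correction described next, these medians were -0.46 and -0.23. Whether shared reads had a part in the decrease was not tested.

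Short transcripts tended to be lower with CuNZ@Gel: across all tested genes the change correlated with log2 transcript length at r = 0.286, as a description over genes that share 4 libraries. The members' median transcript length was 1867 bases and that of all tested genes 3293 bases, with GC contents of 49.8% and 49.5%. After each library was corrected for length and GC content, 54 members were lowered, where 35.9% of 11101 tested genes were lowered, and 4 were raised, where 29.8% were raised. The median member change became -0.39, and 52 of the 64 lowered members were still lowered. Mrpl19 (-1.73), Mrpl23 (-1.47), Mrpl58 (-1.20) and Mrpl24 (-0.99) stayed lowered, while Mrpl22 (0.00), Mrps11 (-0.07) and Mrps18b (-0.11) were among the 12 no longer called. The raised members moved further up, to 0.69 for Mrpl18, 0.67 for Mrpl41 and 0.70 for Mrps21, and Mrpl34, with a short transcript, became raised (0.26, adjusted p = 0.003). Mrpl17, whose longest transcript is 7300 bases, turned from 0.01 to -0.38 (adjusted p = 0.00023). Whether length or RNA quality had a part in the decrease beyond these values was not tested.

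**Figure D3:**
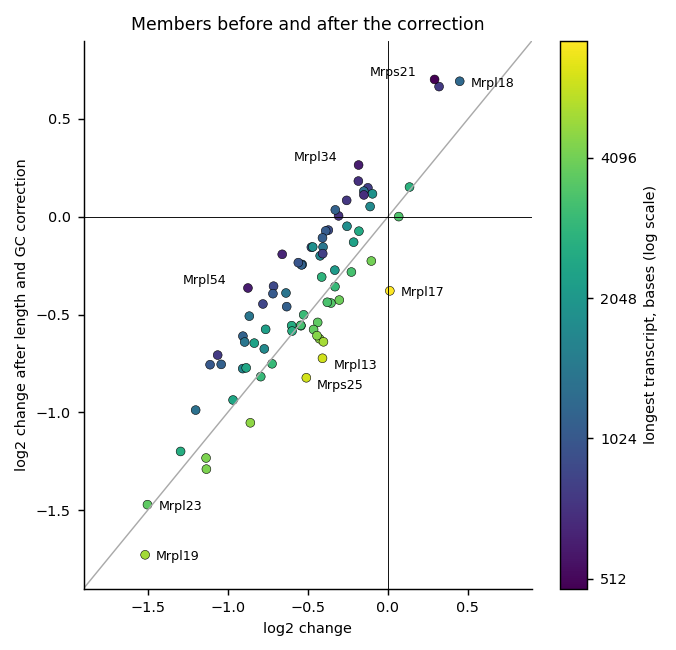
Log2 change of the 78 members before (x axis) and after (y axis) correction for transcript length and GC content, coloured by the longest transcript's length on a log scale; the diagonal marks equal values. Short transcripts tend to lie above the diagonal and long ones below it, with Mrpl17 moving from 0.01 to -0.38 and Mrps21 from 0.29 to 0.70.

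The scaling of the libraries also bears on the counts. With total reads as the only scaling, the median of all tested genes moved from -0.03 to 0.15; 49 members were then lowered, where 24.7% of all tested genes were lowered, and 6 raised, where 43.4% were raised. The median member change was -0.28 on that scale. Members took 0.432% and 0.418% of the reads in Gel and 0.317% and 0.342% in CuNZ@Gel. Abundant RNA classes moved between the groups too. Cytosolic ribosomal protein genes took 10.9% and 10.4% of reads in Gel against 5.29% and 5.79% in CuNZ@Gel, ribosomal RNA-like genes 11.8% and 11.9% against 7.18% and 7.10%, and mitochondrially encoded genes 9.12% and 10.2% against 11.5% and 10.98%. With these classes removed before scaling, 62 members were lowered and 3 raised, with a median of -0.45. The shares of all tested genes in that fit are not given here, so these counts lack their background.

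Genes that serve the mitoribosome were followed in lists written from general knowledge with earlier results of these data known. Of 5 mitoribosomal proteins under other symbols, 4 were lowered: Gadd45gip1 (-0.96), Aurkaip1 (-0.62), Chchd1 (-0.42) and Dap3 (-0.30). Dap3 was not called without Gel replicate 1 (-0.20, adjusted p = 0.104) or with total reads as the only scaling (-0.11), and Chchd1 was not called after length and GC correction (-0.13, adjusted p = 0.101). The fifth, Ptcd3, a small subunit protein, was raised (0.34). Of the ribosomal RNAs, mt-Rnr1 of the small subunit stood at 6435 and 7306 scaled CPM in Gel and at 5256 and 4630 in CuNZ@Gel and was lowered (-0.48 ± 0.08), while mt-Rnr2 of the large subunit was not called (-0.10 ± 0.09).

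Of 29 factors that build the mitoribosome or modify ribosomal RNA, 25 were lowered and 1 was raised, with a median of -0.67. C1qbp, a matrix protein, fell from 332 and 320 to 188 and 198 scaled CPM (-0.75), the helicase Ddx28 from 44.0 and 38.9 to 19.9 and 19.5 (-1.04), and Ngrn from 39.4 and 39.2 to 18.8 and 20.6 (-0.96). The list also held Mettl5 (-1.31), which is known to modify cytosolic rather than mitochondrial ribosomal RNA. The exception was the helicase Dhx30, which rose (0.44). Of 17 translation factors, 10 were lowered and 2 raised (median -0.27). Oxa1l, which inserts the new peptides into the inner membrane and binds the ribosome at the tunnel exit, went from 157 and 152 to 62.7 and 61.7 (-1.30 ± 0.07), beside the elongation factors Tufm (-0.45) and Tsfm (-0.60). With total reads as the only scaling, 22 assembly factors were lowered and 1 raised, but 5 translation factors were lowered and 3 raised (median -0.10), where 24.7% of all tested genes were lowered and 43.4% raised.

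Of 20 genes for mitochondrial transcription and RNA processing, 12 were lowered and 3 raised (median -0.30), among them Ssbp1 (-1.12), Lonp1 (-0.80), Tfam (-0.63) and Twnk (-0.54). With total reads as the only scaling 6 were lowered and 4 raised (median -0.12), beside 24.7% and 43.4% of all tested genes. Of the 10 tested biogenesis regulators 6 were lowered and 4 were not called (median -0.25). Over all tested genes 34.8% were lowered and 32.2% raised. With total reads as the only scaling 3 regulators were lowered and 3 raised (median -0.06), beside 24.7% and 43.4% of all tested genes. Nrf1 fell from 30.7 and 31.8 to 23.9 and 22.6 scaled CPM (-0.41), Gabpb2 from 81.8 and 84.4 to 57.0 and 57.5 (-0.53), and Gabpa from 59.3 and 70.8 to 52.3 and 54.8 (-0.27). Gabpa lost its call without Gel replicate 2 (-0.14, adjusted p = 0.269) and with total reads as the only scaling (-0.08). Ppargc1a, the coactivator of mitochondrial biogenesis, had 1 read in all 4 libraries and was not tested.

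Of the 13 protein genes that the mitoribosome translates, 6 were raised and 3 lowered, with a median of 0.13. With total reads as the only scaling 7 were raised and 1 lowered, with a median of 0.32. The raised share of this list was thus 46.15% and 53.85%, beside 32.2% and 43.4% over all tested genes. The lowered share over all tested genes was 34.8% and 24.7%, and their median moved from -0.03 to 0.15. Whether the list differed from all tested genes was not tested. Leaving out single libraries also ended calls: without Gel replicate 1, ND4 (0.07, adjusted p = 0.627), COX1 (0.30, adjusted p = 0.0587) and ND6 (-0.19, adjusted p = 0.147) were not called. ATP6 lost its call without Gel replicate 2 (-0.18, adjusted p = 0.264), ND4 without CuNZ@Gel replicate 1 (0.15, adjusted p = 0.121) and ND6 without CuNZ@Gel replicate 2 (-0.08, adjusted p = 0.462). ND4L stood at 301 and 318 scaled CPM in Gel and at 921 and 804 in CuNZ@Gel (1.47 ± 0.07), ND5 rose by 0.98 and ATP8 by 0.80, while ND3 fell from 998 and 996 to 667 and 668 (-0.58 ± 0.06). ND4L and ATP8 overlap ND4 and ATP6, so their reads are uncertain. Of the 80 tested nuclear genes listed for the respiratory chain, ATP synthase genes included, 57 were lowered and 5 raised (median -0.37). After length and GC correction 37 were lowered and 18 raised, where 35.9% of all tested genes were lowered and 29.8% raised. The median was then -0.11, beside -0.39 for the members. Principal transcripts in that correction gave 30 lowered and 21 raised, with a median of -0.03 beside -0.37 for the members. Of all tested genes 35.7% were then lowered and 29.5% raised.

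Cytosolic ribosomal proteins, the counterpart family outside mitochondria, had 80 of 83 tested members lowered and 2 raised, with a median of -1.11 and of -0.87 after length and GC correction. Over all tested genes 34.8% were lowered and 32.2% raised. The list was taken by symbol and so also held paralogs, among them the 2 raised genes, Rpl3l and Rps27l. Their summed level was 116064 and 111562 scaled CPM in Gel and 49646 and 54160 in CuNZ@Gel, a ratio of 0.456 against 0.680 for the mitochondrial family. Rpl22l1, another such paralog, had the largest decrease of that list, at -2.78, and Rpl3 and Rpl10a both changed by -1.84. All 3 changed by more than any mitochondrial member. The difference between the 2 families was not tested.

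**Figure D4:**
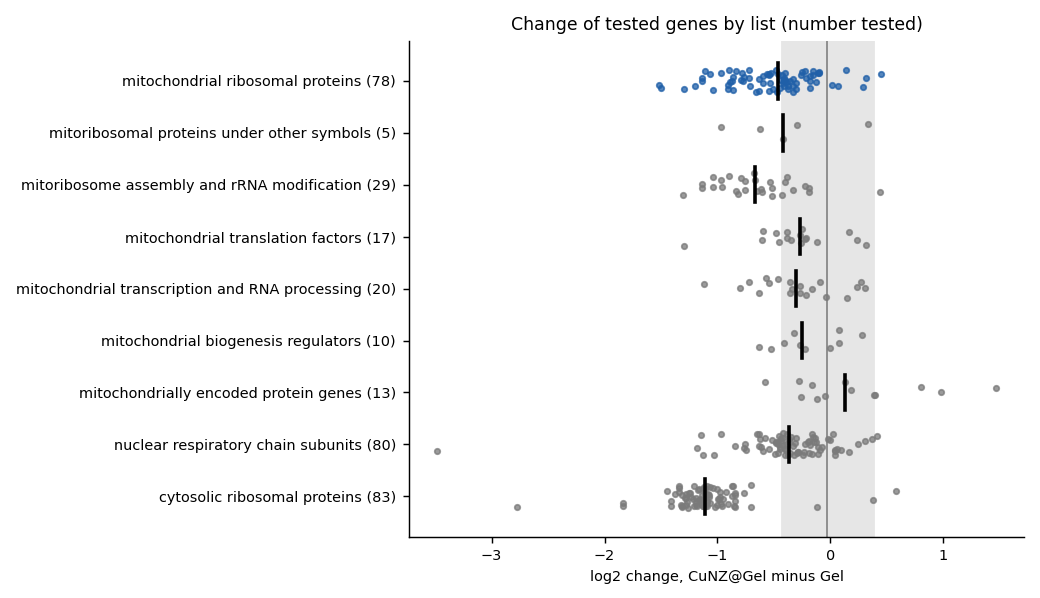
Log2 change (x axis) of every tested gene in the mitochondrial ribosomal protein family (top, blue) and in 8 related lists, with the number tested in brackets; thick lines are medians, the thin line is the median of all tested genes (-0.03) and the grey band their middle range from -0.43 to 0.38. The family's median is -0.47, that of cytosolic ribosomal proteins -1.11 and that of mitochondrially encoded protein genes 0.13. The list of nuclear respiratory chain subunits also holds ATP synthase genes.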

How the data were processed

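The authors deposited 1 log2 value per gene symbol and library, which the values show to be log2(scaled CPM + 1). The submitters' processing notes list GATK, STAR, Salmon and fastp and the build GRCm39; versions, roles, strand setting and annotation were not given in the sources used here. Of low values, between 92.6% and 93.6% were whole multiples of 1 read within 0.02 reads, which gave the depth. A count of 0 allows up to 3 reads, worth 0.189 to 0.234 scaled CPM by library (counting error only).

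The test was that of limma 3.58.1 (R 4.3.3) on the deposited log2 values of genes that reached 1 scaled CPM in 2 or more libraries. A variance trend was used, with group alone as the model. The fit was also run on simulated data with few changed genes, balanced in direction, and no library factors. That setting is unlike these libraries, so the run does not bear on the calls made here. The scale understates changes of low genes. Replicate libraries differed by more than counting noise (chi-square per member 2.40 in Gel and 3.97 in CuNZ@Gel). The length and GC correction fitted splines per library to the longest GENCODE vM21 transcripts, known for 95.8% of tested genes; that annotation, which also gave the exon overlaps, is of another build, so none of its coordinates are printed. Alternatives were other scalings, limma-voom on recovered reads, other filters, a pseudocount of 0.1, a minimum fold of 1.5, removal of abundant RNA classes, each library left out, and the replicate number as a block. Principal transcripts and a crossed block were added after seeing the data.

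The members, lists and alternatives were chosen with earlier results of these data known. Named were the 10 lowered and 10 raised members with the smallest p (3 were raised), the 5 highest and 5 lowest per kb in Gel, up to 12 members against the main direction, the Mrps18 paralogs and up to 4 genes per list with the smallest p; others named were chosen after their values were seen.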

Additional observations from a re-analysis of the deposited data

How the results depend on the processing

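The count of lowered members stayed within 1.5 times of 64 under every alternative but the minimum fold of 1.5, where limma called 18 lowered and 0 raised (22 and 0 at an unadjusted p under 0.05; no other tool was run there). Raised members numbered 6 with total reads only, 1 without a filter and 7 with principal transcripts in the length and GC correction, which was chosen after seeing the data. The median change was -0.28 with total reads only, -0.39 with the length and GC correction, with or without a replicate block, and -0.37 with principal transcripts. With each library left out in turn, the raised count lay between 1 and 3, the lowered count between 59 and 65 and the median between -0.56 and -0.40; CuNZ@Gel replicate 2 was the library without which 1 was raised. Mrpl17 turned to -0.38 with the length and GC correction, also with the replicate block, and to -0.41 with principal transcripts. Mrpl20 turned upward (0.25) with principal transcripts. Mrps10 was lowered with the longest transcripts in that correction (-0.23, adjusted p = 0.0429) but raised with principal ones (0.19, adjusted p = 0.0453). The cause of these turns was not tested. The replicate block alone gave 62 lowered and 3 raised; same-numbered libraries did not deviate together (correlation -0.12 over 2 pairs), so the numbers are not shown to pair samples. A crossed block, added after seeing the data, gave 64 and 3. The 2 libraries per group limit every p here, and depth limits Mrps12 most.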

Other observations

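Many members face another gene head to head. In the RefSeq promoter table, 26 members had a start site within 1000 bases of the start of a gene on the other strand. Mrpl46 and Mrps11 face each other, and both were lowered (-0.54 and -0.39). Of the 22 tested partners from outside the family, 7 were lowered, 6 were raised and 9 were not called, near the 34.8% lowered and 32.2% raised of all tested genes. The median partner change was 0.00, beside -0.41 for the members in these pairs. Where the member was lowered, which was so in 16 pairs, the partner was lowered in 4, raised in 5 and not called in 7, which is also near the shares of all tested genes.

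Partners lowered with their member included Twnk, the mitochondrial helicase, with Mrpl43 (-0.54 and -0.64), Sars2, the mitochondrial seryl-tRNA synthetase, with Mrps12 (-0.94 and -0.71), and Ndufb5, a complex I subunit, with Mrpl47 (-0.52 and -0.38). Partners raised while the member was lowered included Tmem63b with Mrpl14 (0.52 and -0.66), Ska3, a kinetochore protein, with Mrpl57 (0.45 and -0.54), and Ppp1r10 with Mrps18b (0.44 and -0.41). The chaperonin subunit Tcp1 was lowered (-0.25) while the facing Mrpl18 was raised (0.45). Such pairs share reads where their exons overlap and strand is not used, and these partner values were looked at after the members' values were known.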
